A study of Mus musculus with 36 samples.

Results

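The cytosolic ribosomal protein genes were followed by RNA sequencing in mouse embryonic fibroblasts (MEFs) under 2 stresses. Members were the table's gene symbols for the numbered Rpl and Rps proteins plus Rplp0, Rplp1, Rplp2 and Rpsa. Symbols carrying -ps or -rs, the Rps6k kinases and Rps19bp symbols were left out. This gave 92 of 54735 symbols, 37 of the small and 55 of the large ribosomal subunit. All 92 matched the GENCODE M21 annotation, which calls 85 protein coding and 7 pseudogenes, on 19 chromosomes with 4 members on X. The expression filter, explained with the tests, kept 87 of them, 36 small and 51 large. Rpl3l, Rpl10l, Rpl6l, Rpl32l and Rps12l1 did not pass it.

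The cells were wild type (WT), labelled GCN2 delete, or labelled PERK delete, all grown in RPMI 1640 with 10% fetal bovine serum. GCN2 and PERK are kinases that phosphorylate the translation initiation factor eIF2 alpha, GCN2 when amino acids run short and PERK when proteins misfold in the endoplasmic reticulum. Each line was untreated, given the solvent DMSO, starved (labelled AAS, in RPMI 1640 SILAC medium without lysine and arginine), or given thapsigargin (labelled Tg, 200 nM), an inhibitor of the calcium pump of the endoplasmic reticulum. Both stresses lasted 6 h. Each of the 12 groups held 3 libraries, called technical replicates in the labels, so 36 in all. The sources used here name 1 line per genotype and no more than that, so genotype and line cannot be told apart. The p-values measure the spread of technical replicates and no other variation. The labels do not say how long DMSO was given, which part of either kinase gene was deleted, or which control belongs to which stress.

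Each ribosome carries a single copy of nearly all of these proteins, assembled with ribosomal RNA in the nucleolus, so cells make them in nearly equal amounts. Rplp0 anchors the acidic stalk proteins Rplp1 and Rplp2, which recruit elongation factors. Rpl5 and Rpl11 also bind Mdm2 and thereby link ribosome assembly to p53. Most of the mRNAs begin with a run of pyrimidines (the TOP motif), through which mTORC1 and Larp1 control their translation when amino acids are short. That control acts on translation, which total RNA does not measure. Some members have paralogs with other expression patterns, such as Rpl22 and Rpl22l1, Rpl39 and Rpl39l, or Rps27 and Rps27l. The mouse genome also holds many processed pseudogenes of the family, reverse-transcribed copies without introns.

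Values are given as TPM, the length-scaled share that a transcript takes of its library on a fixed total, so a level is always relative to all other transcripts in that library. TPM keeps no read depth, so the depth behind a value is unknown. In bulk RNA, fewer cells with a transcript and less of it per cell cannot be told apart. The members together took 10.5% to 16.7% of TPM per library (median 13.1%), the small subunit 4.51% to 6.60% and the large subunit 5.99% to 10.1%. Mitochondrial transcripts took 4.27% to 9.49%, and genes annotated as microRNAs 0.803% to 3.57%, with 6 libraries over 2%. The deleted genes were checked first. Eif2ak4, which encodes GCN2, stood at 24.6 ± 3.81 TPM (SD, n = 3) in untreated WT and 5.25 ± 0.620 in untreated GCN2-deletion cells. Eif2ak3, which encodes PERK, stood at 6.99 ± 0.878 in WT and 4.22 ± 0.353 in PERK-deletion cells. A deletion can leave part of a transcript to be counted. With starvation the stress gene Trib3 rose in WT (log2 change 3.39 ± 0.12, SE) and fell in the GCN2-deletion line (-1.72 ± 0.12), with limma adjusted p = 5.62e-18 and 2.88e-11. The starved PERK-deletion line, whose untreated cells held 22.7 TPM of Eif2ak4, gave 0.27 ± 0.12 for Trib3 (adjusted p = 0.157) and a fall of the stress gene Ddit3 (-0.27 ± 0.06, adjusted p = 0.00338). Under thapsigargin Trib3 rose by 1.07 and Ddit3 by 2.27 in that line (adjusted p = 3.93e-07 and 2.07e-20), against 3.83 and 3.94 in WT, while its Eif2ak3 averaged 8.61 TPM. Of 10 fibroblast markers, 8 averaged at least 1 TPM, against 0 of 4 epithelial, 1 of 4 leukocyte and 0 of 4 endothelial markers. The PERK-deletion line stood apart with 15.1 TPM of the fibroblast collagen gene Col1a1 when untreated, against 1058 in WT.

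The members' share of TPM was lowest in thapsigargin-treated GCN2-deletion cells. In that line the untreated libraries gave 13.7%, 14.7% and 12.6%, the DMSO libraries 10.8%, 13.9% and 13.8%, the starved libraries 12.8% to 13.1%, and the thapsigargin libraries 10.5%, 11.4% and 10.8%. The thapsigargin values lay below every other library of the line except DMSO replicate 1, which overlapped them. That library also had the highest microRNA share of all, 3.57%. In WT the share was 14.5%, 16.7% and 15.4% with DMSO and 14.9%, 16.5% and 16.1% with thapsigargin, which overlap. Untreated WT was the most scattered group (11.6%, 14.1% and 16.0%). In the PERK-deletion line DMSO gave 12.2% to 12.5% and thapsigargin 12.1% to 12.6%.

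**Figure D1:**
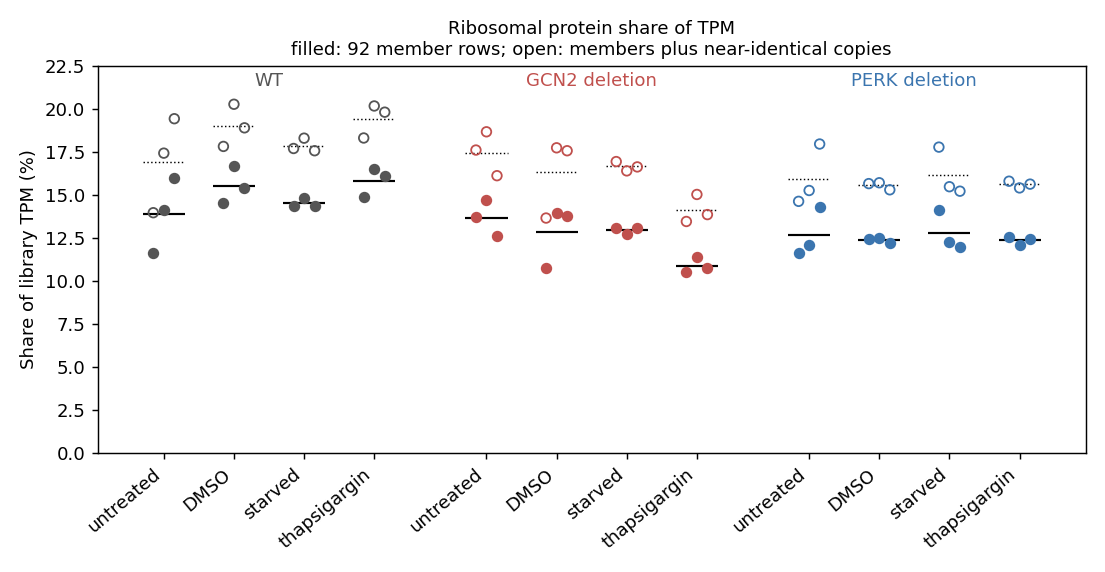
Share of each library's TPM (%, y axis) held by the 92 members (filled points) and by the members plus their near-identical copies (open points), 3 libraries per group, with group means as solid and dotted lines. The filled points of GCN2-deletion cells with thapsigargin lie between 10.5% and 11.4%, beside 1 low DMSO library of the same line at 10.8%.

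Levels differed widely among the member rows, which include pseudogenes, paralogs and parents with abundant copies. Averaged over the 12 groups, 58 members had at least 1000 TPM, 24 had 100 to 1000, and 10 had under 100, with a median of 1383 TPM. The highest were Rpl41 (5581 TPM), the smallest protein of the ribosome, Rplp1 (4938), Rps2 (4080), Rpl8 (3575) and Rps18 (3540). At the low end of the tested members were Rpl39l (0.633), Rps4l (4.02), Rps27rt (25.8), Rps3a3 (50.3) and Rpl5 (91.6). Of these, Rps4l and Rps3a3 are annotated pseudogenes, Rps27rt is a near-identical copy of Rps27, and Rpl39l is a paralog of Rpl39. The spread is therefore not one among the main ribosomal protein genes alone. The low value of Rpl5 can depend on how reads were divided, since 95.1% of its family's TPM was assigned to near-identical copies. Expression of the copies themselves cannot be told apart from that division in TPM. With copies summed, the Rpl5 family averaged 2109 TPM in untreated WT. Levels of other parents with abundant copies carry the same limit, described below. Group means ranged over a median of 0.68 log2 units per member, against 0.98 for all tested genes. The median was 0.68 for the 1585 tested genes over 100 TPM. That set includes most members and is not matched to them in level, so it does not compare them with other genes. The 6 with the widest range of group means were Rps3a2, Rps3a3, Rplp0, Rps4l, Rps27rt and Rpl30, at 8.92, 6.72, 3.25, 2.94, 1.76 and 1.74 log2 units.

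Among members with further roles, Rpsa, which also serves as a laminin receptor, ranged from 2370 to 3331 TPM over the group means. Rps6, the substrate of the S6 kinases, ranged from 1273 to 1775 TPM. Rps19, whose human counterpart is mutated in Diamond-Blackfan anaemia, ranged from 1053 to 1893 TPM. Rpl26, which binds p53 mRNA, ranged from 1909 to 2911 TPM. Rpl13a, a member of the interferon-gamma translation inhibitor complex, ranged from 1634 to 3240 TPM, with its lowest mean in the PERK-deletion line. Rpl10, which joins the large subunit late in its maturation, ranged from 764 to 1043 TPM, and Rpl7 from 1312 to 1725 TPM. Of the paralog pairs, Rpl22 (692 to 983 TPM) stood above Rpl22l1 (153 to 353), Rps27 (1348 to 2147) above Rps27l (369 to 488), and Rpl36a (652 to 1170) above Rpl36al (449 to 576) in these ranges. The germline paralog Rpl10l was listed at 0 throughout, and the muscle paralog Rpl3l did not exceed a group mean of 0.180 TPM. Rplp2 ranged from 1171 to 2233 TPM and Rps4x from 1357 to 1989. The lowest mean fell in thapsigargin-treated GCN2-deletion cells for Rps6, Rpl26, Rpl7, Rpl22, Rps27, Rps27l, Rpl36a, Rpl36al and Rps4x. It fell there likewise for Rpl5, Rpl7l1, Rpl11 and Rpl39 of this panel, while others, such as Rpsa and Rps19, had it in other groups. How many of all tested genes had their lowest mean there was not counted, so it cannot be called particular to the members.

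Changes were tested on log2(TPM + 1) with limma over all 16083 rows in which at least 3 libraries reached 1 TPM, and a member is said to rise or fall at a Benjamini-Hochberg adjusted p under 0.05. Fold changes on this scale understate those of low genes. Starvation is set against untreated cells, thapsigargin against DMSO.

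Amino acid starvation moved hardly any member. In WT, 0 of 87 rose and 0 fell, while 12.5% of all tested genes rose and 17.4% fell. At an unadjusted p under 0.05 there were 2 members, and the median change was 0.06 for the members and -0.05 for all genes. Leaving out untreated WT replicate 3, the library with the highest share in its group, gave 7 that rose, and leaving out replicate 1 or 2 gave 1. With DMSO as the control 1 rose and 3 fell, and without the 6 libraries of high microRNA share 0 rose and 6 fell. In the PERK-deletion line, where Trib3 did not pass the test, 0 rose and 0 fell (4 at an unadjusted p under 0.05), against 5.75% and 6.39% of all genes. In the GCN2-deletion line 3 rose and 2 fell, against 11.7% and 12.2% of all genes. Rpl12, part of the stalk base, went from 112, 128 and 117 TPM to 144, 145 and 188 (log2 change 0.41 ± 0.11, adjusted p = 0.00829). Rpl7l1, a paralog of Rpl7 with a role in ribosome assembly, went from 145, 138 and 154 to 190, 181 and 190 (0.36 ± 0.09, adjusted p = 0.00352). Rpl3, which lies at the peptidyl transferase centre, went from 1047, 1110 and 973 to 1206, 1189 and 1298 (0.24 ± 0.06, adjusted p = 0.00217). None of these 3 overlapped between the groups. Rpl4 fell from 1977, 2019 and 1857 to 1715, 1696 and 1636 (-0.21 ± 0.05, adjusted p = 0.000988). Rpl12 lost its call without starved replicate 3 (adjusted p = 0.0949) and with its copies summed (0.04, adjusted p = 0.870). The fall of Rpl4 differed from its WT response (difference -0.22 ± 0.07, adjusted p = 0.0299), the 1 member of 87 to do so, against 3.69% of all genes with a higher and 4.17% with a lower response in the GCN2-deletion line. That difference missed the threshold in 6 of the fits that left out 1 library (adjusted p up to 0.0998). Starved WT cells had 1702, 1681 and 1655 TPM of Rpl4 against 1556, 1718 and 1733 untreated. Between the starvation responses of the PERK-deletion line and WT, limma called 0 of 87 (0 also at an unadjusted p under 0.05), against 5.58% higher and 5.34% lower among all genes.

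The vehicle moved no member past the threshold. DMSO against untreated cells gave 0 of 87 in WT and 0 in either deletion line, with 9, 1 and 0 members (WT, GCN2 deletion, PERK deletion) at an unadjusted p under 0.05. Among all genes 0.118%, 0.149% and 0.242% passed. In WT 79 of 87 changes lay above 0 with a median of 0.16, against a median of -0.06 for all genes. Without untreated replicate 3 there were 7 that rose.

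Thapsigargin lowered many members in the GCN2-deletion line. Of 87 members 34 fell and 1 rose, against 11.3% of all genes that fell and 25.4% that rose. The median change was -0.20 for the members and 0.08 for all tested genes, and 78 of the 87 changes lay below 0. Both subunits took part in nearly equal shares, with 14 of 36 small and 20 of 51 large subunit members falling. In 27 members each thapsigargin library lay below each DMSO library, against 13.9% of all genes. Other values moved in the same comparison. Mitochondrial transcripts took 7.29%, 6.46% and 6.39% of TPM with DMSO and 5.18%, 4.27% and 5.78% with thapsigargin, without overlap. The 4 endothelial markers summed to 2.20 to 3.90 TPM with DMSO and 5.15 to 6.84 with thapsigargin. Of these, 2 passed the filter and both rose, Pecam1 from a mean of 0.955 to 2.77 TPM and Kdr from 1.90 to 2.78, while Cdh5 and Tek measured at most 0.439 and 0.0196 TPM in its thapsigargin libraries. Of the 9 fibroblast markers tested 1 rose and 2 fell, and the sum of all 10 went from 6144 to 6603 TPM down to 5452 to 5578. The part of these in the members' fall was not tested.

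The member that fell most was Rpl24, which helps form the bridge between the subunits. It measured 1203, 1465 and 1465 TPM with DMSO and 816, 770 and 812 with thapsigargin, a log2 change of -0.78 ± 0.09 (adjusted p = 6.65e-08). Rpl37a, a small zinc-binding protein, measured 880, 1230 and 1217 TPM with DMSO and 608, 692 and 635 with thapsigargin (-0.77 ± 0.12, adjusted p = 6.10e-06). In both genes the groups did not overlap, and the thapsigargin libraries were the lowest of all 36. Rpl21 went from 885, 1098 and 1025 to 671, 606 and 681 TPM (-0.62 ± 0.10, adjusted p = 9.51e-06). X-linked Rpl36a went from 853, 1060 and 1032 to 655, 660 and 640 (-0.58 ± 0.09, adjusted p = 1.10e-05). Rps25, which several viral internal ribosome entry sites need, went from 1704, 2152 and 2127 to 1341, 1343 and 1315 (-0.57 ± 0.10, adjusted p = 5.75e-05). These 3 did not overlap either. Rpl11 went from 1139, 1658 and 1623 to 941, 1086 and 976 TPM, Rpl38, whose loss alters the axial skeleton in mice, from 1225, 1710 and 1697 to 1019, 1099 and 1051, and Rps15 from 2312, 3208 and 2977 to 1950, 2146 and 1842. Their log2 changes were -0.54 ± 0.12, -0.53 ± 0.14 and -0.51 ± 0.12. In every gene of this paragraph DMSO replicate 1 was the lowest DMSO library. The member that rose was Rpl3, from 875, 997 and 1014 to 1136, 1047 and 1118 TPM (0.20 ± 0.06, adjusted p = 0.00679), with no overlap. The rise of Rpl3 missed the threshold without DMSO replicate 1 (0.13, adjusted p = 0.0753), with rescaling (0.05, adjusted p = 0.715) and with untreated cells as the control (0.08, adjusted p = 0.288).

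**Figure D2:**
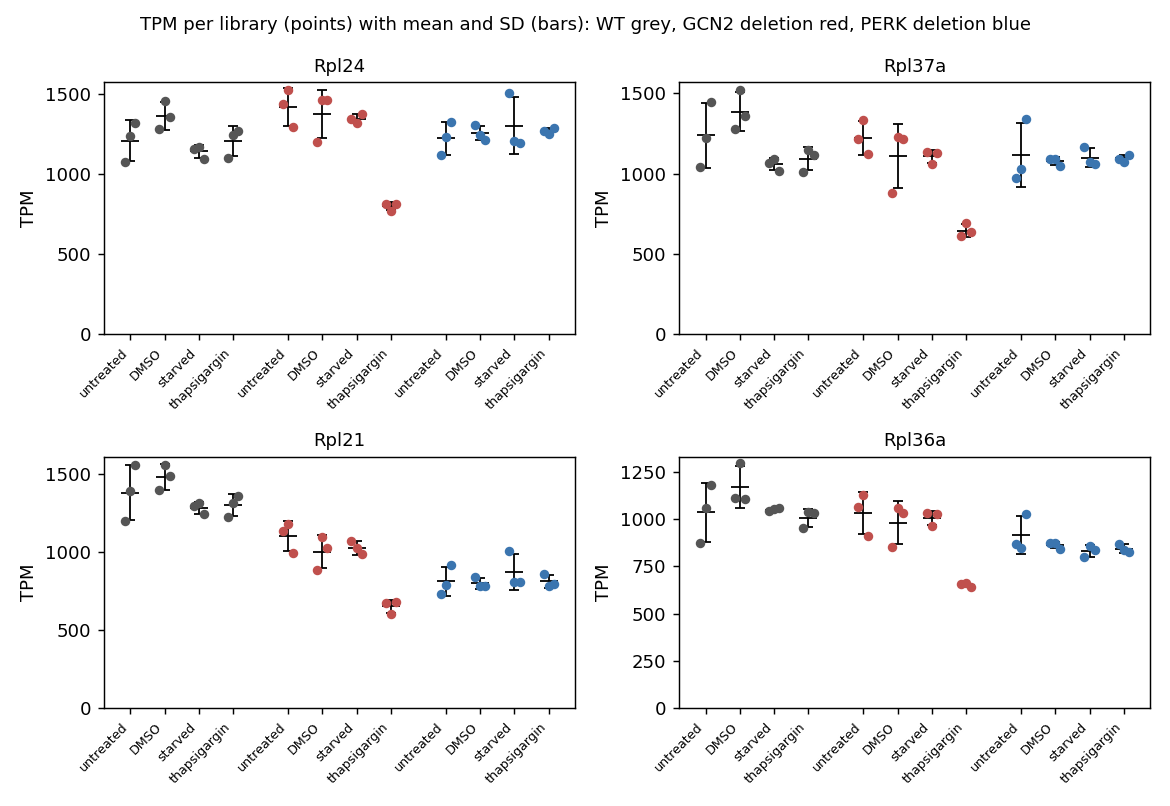
TPM (y axis) of Rpl24, Rpl37a, Rpl21 and Rpl36a in each library (points) with group mean and SD (bars, n = 3) for WT (grey), GCN2 deletion (red) and PERK deletion (blue). In each panel the 3 thapsigargin libraries of the GCN2-deletion line are the lowest points of that line, for Rpl24 at 770 to 816 TPM against 1098 to 1273 in thapsigargin-treated WT.

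The number of members that fell depended on single libraries and on the scaling. Leaving out DMSO replicate 1, the library with low member share and high microRNA share, raised the fallers to 53 with a median of -0.31. Leaving out DMSO replicate 2 left 21 fallers and 1 riser, DMSO replicate 3 left 20 and 2, and thapsigargin replicate 1 left 21 and 1. Without all 6 libraries over 2% microRNA TPM, 72 members fell and 1 rose (median -0.33), beside 11.1% and 30.5% of all genes. In this comparison that fit leaves out DMSO replicate 1 and thapsigargin replicate 2, 1 library per group. DMSO replicate 1 had the lowest member share of its group (10.8%) and thapsigargin replicate 2 the highest of its group (11.4%). Fitting the GCN2-deletion DMSO and thapsigargin groups alone gave 13 fallers. Median-of-ratios rescaling gave 40 fallers and 0 risers, and moved the split over all genes from 4093 higher and 1815 lower to 3000 and 3226. Each of these settings kept the median below 0. Of the 35 calls, 19 held in every fit that left out 1 library.

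Transcript length moved together with this change. The members are short, with a median of 751 bases over annotated transcripts against 2406 for all tested protein-coding genes, and 65 of the 83 with a length are under 1000 bases. Among other protein-coding genes over 100 TPM and under 1000 bases, 184 of 434 fell in the same comparison (42.4%, median -0.16). The share was 28.1% (median -0.05) from 1000 to 2000 bases, 20.9% (0.02) from 2000 to 4000, and 12% (0.08) above. With all libraries the members' share that fell was 39.1%, near the 42.4% of other short, abundant genes. Without the 6 libraries of high microRNA share it was 82.8% (median -0.33) against 55.8% (median -0.22), so the shares no longer lay near each other. That fit, chosen after its values were seen, leaves out the DMSO library of lowest and the thapsigargin library of highest member share in this line. The part of length or of the microRNA share in the members' fall was not tested.

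**Figure D3:**
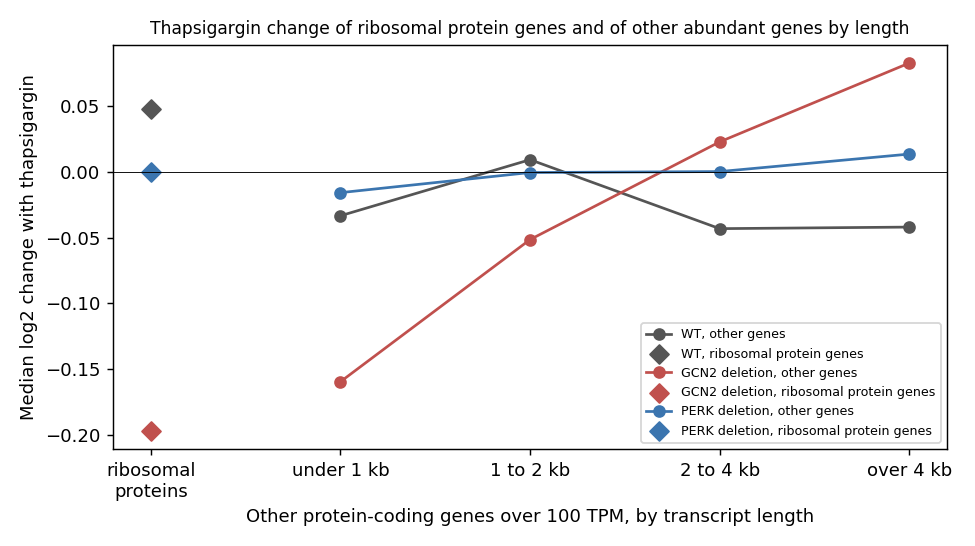
Median log2 change with thapsigargin (y axis) of the tested members (diamonds) and of other protein-coding genes over 100 TPM in 4 classes of transcript length in kilobases (circles), for the 3 lines. In the GCN2-deletion line the other genes run from -0.16 in the shortest class to 0.08 in the longest, and the members lie at -0.20.

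Thapsigargin moved few members in the other lines. In WT 3 rose and 2 fell, against 11.4% and 14.8% of all genes, with a median of 0.05. Rpl12 rose from 119, 128 and 118 TPM to 177, 168 and 151 (0.44 ± 0.11, adjusted p = 0.00389) without overlap. Rps12, a small subunit protein of the beak region, rose by 0.23 ± 0.08 (adjusted p = 0.0332), and Rpl3 rose by 0.16 ± 0.06 (adjusted p = 0.0332). Rpl37a fell from 1279, 1523 and 1358 to 1011, 1149 and 1117 (-0.34 ± 0.12, adjusted p = 0.0280), and Rpl7l1 from 238, 223 and 257 to 208, 188 and 197 (-0.27 ± 0.09, adjusted p = 0.0242), both without overlap. Set against untreated in place of DMSO cells, 24 members rose in WT and 0 fell, and leaving out 1 library in turn gave 1 to 4 calls. The count was 1 without DMSO replicate 3 or without thapsigargin replicate 3, and 2 without DMSO replicate 1 or thapsigargin replicate 2. Without the 6 libraries of high microRNA share, 7 rose and 7 fell. Of the 5 calls, Rpl12 alone held in every fit that left out 1 library. With copies summed, as described below, 3 of the 5 calls were kept. Copies hold 95.7% of the TPM of the Rpl12 family and 96.0% of the Rps12 family, so the rises of these 2 rows cover a small part of their families. In the PERK-deletion line 0 rose and 0 fell, with 1 at an unadjusted p under 0.05, against 2.5% and 2.8% of all genes.

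**Figure D4:**
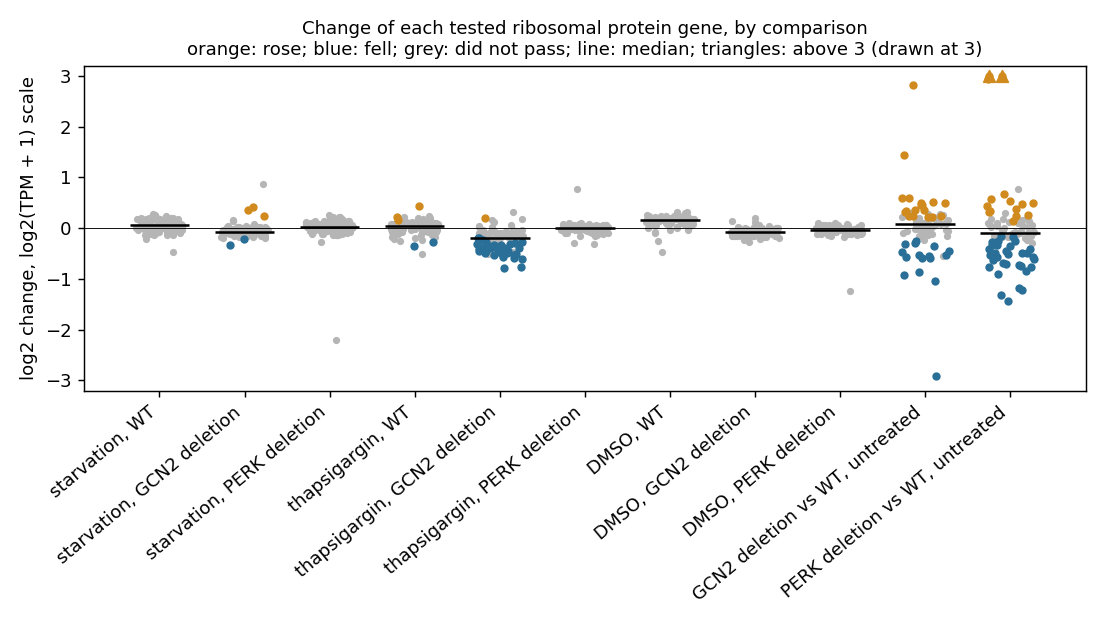
Log2 change on the log2(TPM + 1) scale (y axis) of each of the 87 tested members in 11 comparisons, orange where it rose or was higher, blue where it fell or was lower, grey where it did not pass, with the median as a line. Thapsigargin in the GCN2-deletion line gives 34 blue points and a median of -0.20, and both comparisons of untreated lines give points of both colours, with triangles for 2 values above 3.

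Whether the thapsigargin response differed between the lines was tested as a difference of changes. Against WT, 7 members responded lower and 0 higher in the GCN2-deletion line, where 1.95% of all genes responded lower and 12.3% higher. They were Rpl24 (-0.60 ± 0.13, adjusted p = 0.00227), Rpl23 (-0.47 ± 0.13, 0.0149), Rpl21 (-0.43 ± 0.14, 0.0355), Rpl9 (-0.39 ± 0.12, 0.0305), Rpl36al (-0.37 ± 0.09, 0.00881), Rps4x (-0.35 ± 0.09, 0.0110) and Rps12 (-0.33 ± 0.11, 0.0480). Rpl37a, the second-largest fall, gave a difference of -0.42 ± 0.16 with adjusted p = 0.0819, and fell in both lines. Differences lay below 0 for 82 of 87 members, with a median of -0.27 against 0.13 for all genes. Among the other short, abundant genes 45 of 434 responded lower (10.4%, median -0.15), beside 8.05% of the members. Rescaling moved the median of all genes in this comparison from 0.13 to -0.02 and that of the members to -0.46, with 12 members called. The count of members was 73, all lower, with untreated cells as the control in both lines, and also 73, all lower, without the 6 libraries of high microRNA share, where 199 of the 434 short, abundant genes and 4.68% of all genes responded lower. Of the 7, Rpl24, Rpl36al and Rps4x held in every fit that left out 1 library. With copies summed, Rpl21 gave -0.10 ± 0.20 (adjusted p = 0.796) and Rps12 also missed the threshold (-0.16, adjusted p = 0.599). Leaving out GCN2-deletion DMSO replicate 1 gave 29, WT DMSO replicate 2 gave 18, WT thapsigargin replicate 1 gave 14 and WT thapsigargin replicate 3 gave 3. It was 4 without GCN2-deletion DMSO replicate 2 or thapsigargin replicate 1, and 4 without WT DMSO replicate 1 or 3 or thapsigargin replicate 2. Between the PERK-deletion line and WT 1 member differed, against 5.59% of all genes higher and 7.38% lower. It was Rpl12 (-0.75 ± 0.16, adjusted p = 0.00150), which in the PERK-deletion line went from 123, 116 and 128 TPM to 102, 99.4 and 94.1 (-0.31 ± 0.11, adjusted p = 0.124) while it rose in WT. Rpl12 holds a small part of its family's TPM, as described with the copies, and with copies summed the difference was -0.21 ± 0.15 (adjusted p = 0.460).

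The starts of the members were examined because 34 of them fell together. RefSeq promoter windows on GRCm38.p6 matched 67 members, and were searched from 50 bases before to 50 after the annotated start. Shown are 30 bases around the longest run of C and T, on the gene's strand, for 6 that fell with thapsigargin in the GCN2-deletion line (Rpl24, Rpl37a, Rpl36a, Rps25, Rpl11, Rpl38) and 2 that did not pass (Rpl34, Rpl13a), with the run in capitals.
Rpl24, chr16:55966227-55966256, + strand: acctcaaacccaCTCCCCgccaatgctgta
Rpl37a, chr1:72711274-72711303, + strand: cgcattgcgTCCCTTCCTCTTCggacttgg
Rpl36a, chrX:134585672-134585701, + strand: cggctctagCCTCTCTCTTTCCgagctgct
Rps25, chr9:44407684-44407713, + strand: ccaccgggCTTCCTTTTTTTCCgacatctt
Rpl11, chr4:136053358-136053387, - strand: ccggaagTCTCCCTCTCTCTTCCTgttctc
Rpl38, chr11:114668568-114668597, + strand: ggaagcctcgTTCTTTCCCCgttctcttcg
Rpl34, chr3:130730330-130730359, - strand: acccgCCCCTTCCTTTTCCTCTTCCgggga
Rpl13a, chr7:45128722-45128751, - strand: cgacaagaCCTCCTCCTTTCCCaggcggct
A run of at least 8 pyrimidines lay in the window of 54 of 67 members (80.6%), against 39.3% of all 27025 symbols with a promoter window. Those symbols, also used for the letters below, were not limited to genes expressed here, so the contrast can partly be one of expression. It was present in 24 of the 30 matched members that fell (80.0%) and in 28 of the 34 other tested members (82.4%), so its share was nearly equal in both. Rpl24, which fell most, has no run longer than 6 in this window. Counted with the annotated start as 1, the run began at -36 in Rpl24, 24 in Rpl37a, 28 in Rpl36a and -22 in Rps25. It began at 14 in Rpl11, -2 in Rpl38, -17 in Rpl34 and 3 in Rpl13a. A run counted here can therefore lie away from the start, and is not by itself a TOP motif. The letters CCGGAAG, searched on both strands over 250 bases before to 50 after the start, were in 26 of 67 members (38.8%) against 9.93% of all symbols, in 50% of those that fell and in 32.4% of the others. AAGATGGC was in 8.96% of members and 3.19% of all symbols, and TATAAA in 11.9% and 15.7%. On the other strand CCGGAAG reads CTTCCGG, whose CTTCC can lie inside a pyrimidine run, so both counts can share bases. A match is a description of the sequence only.

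The untreated lines differed from each other in many members, in both directions. In the GCN2-deletion line 18 of 87 were higher and 16 lower than in WT, against 21.2% and 23.2% of all genes, so the members' shares lay close to the background. Without the 6 libraries of high microRNA share, of which untreated WT replicate 1 is in these groups, 13 were higher and 24 lower, with a median of -0.05 against 0.07 with all libraries, beside 24.3% and 20.8% of all genes. The member furthest below WT was Rplp0, the stalk base protein often used as a reference gene. It measured 2847, 3729 and 4064 TPM in WT and 461, 503 and 430 in the GCN2-deletion line (log2 difference -2.92 ± 0.10, adjusted p = 7.09e-20). Next below were Rpl30 (-1.04 ± 0.10), Rpl3 (-0.92 ± 0.06), Rpl5 (-0.87), Rpl37rt (-0.59), Rpl7l1 (-0.58), Rpl29 (-0.58) and Rpl15 (-0.55). Rpl37rt is an annotated pseudogene copy of Rpl37 with 1 mismatch. It missed the threshold in 4 of the fits that left out 1 library (adjusted p up to 0.189). Above WT were Rpl22l1 (0.59), Rps14 (0.58), Rpsa (0.51), Rplp1 (0.49), Rpl14 (0.49) and Rps25 (0.46). Rplp1 missed the threshold without untreated WT replicate 1 (adjusted p = 0.103). Of the 34 calls, 21 held in every fit that left out 1 library. Rps4l, an annotated pseudogene of the Rps4 family, was listed at 0 in 11 of the 12 WT libraries, and measured 5.64, 6.90 and 5.71 TPM in untreated GCN2-deletion cells and 7.04, 6.43 and 6.49 in untreated PERK-deletion cells. The testis-enriched paralog Rpl39l measured 1.37, 2.37 and 1.73 TPM in untreated GCN2-deletion cells and was listed at 0 in every PERK-deletion library. Both passed the test as higher in the GCN2-deletion line, and their folds against values at or near 0 are not given.

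In the PERK-deletion line 33 of 87 were lower and 15 higher than in WT, against 18.6% and 31.2% of all genes. Among the other short, abundant genes 122 of 434 were lower (28.1%) and 142 higher. Without the 6 libraries of high microRNA share, of which untreated WT replicate 1 and PERK-deletion replicate 3 are in these groups, 54 members were lower and 10 higher. Their median was then -0.32 against -0.11 with all libraries, beside 15.4% lower and 38.7% higher among all genes. Of the 434 short, abundant genes 157 were lower (36.2%) and 133 higher in that fit. With all libraries, 19 of the 51 large subunit members were lower and 4 higher, and 14 of the 36 small subunit members were lower and 11 higher. Rpl30 measured 2287, 3113 and 3275 TPM in WT, 1437, 1438 and 1307 in the GCN2-deletion line, and 975, 1026 and 1178 in the PERK-deletion line (-1.43 ± 0.10 against WT, adjusted p = 1.61e-12). Rpl3 measured 1814, 2016 and 2104 in WT and 761, 824 and 787 in the PERK-deletion line (-1.32 ± 0.06, adjusted p = 2.31e-17). Rps7, which also binds Mdm2, measured 836, 806 and 905 in WT and 330, 384 and 420 in the PERK-deletion line (-1.17 ± 0.07, adjusted p = 1.94e-13). None of the 3 overlapped with WT. Others furthest below WT were Rpl37rt (-1.22), Rplp0 (-0.90), Rpl37 (-0.84), Rpl21 (-0.76) and Rpl8 (-0.76), and above WT were Rps29 (0.66), Rps14 (0.57), Rps27 (0.53), Rps23 (0.50) and Rpsa (0.47). Rps3a2 and Rps3a3, annotated as processed pseudogenes of Rps3a1, measured 523, 558 and 677 TPM and 127, 125 and 164 TPM in the PERK-deletion line, against at most 0.467 and 0.782 TPM in untreated WT. Of the 48 calls in the PERK-deletion line, 36 held in every fit that left out 1 library. With the compared groups fitted alone, 23 members were called in the PERK-deletion line (4 higher, 19 lower) and 14 in the GCN2-deletion line (4 higher, 10 lower).

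Many of these differences moved together with TPM assigned to near-identical copies. A search of annotated transcripts (BLAST, at least 90% identity over at least 50% of the copy) matched 1088 copies to members, of which 152 averaged at least 1 TPM, in 61 families. In 13 families the copies held more TPM than the parent, led by Rps12 (96.0%), Rpl12 (95.7%), Rpl5 (95.1%), Rpl27a (84.3%) and Rps23 (81.3%). The copy Rps12-ps3 averaged 4223 TPM beside 177 for Rps12, Gm10275 averaged 2958 beside 134 for Rpl12, and Gm15500 averaged 1785 beside 91.6 for Rpl5. In all, 19 copies of at least 100 TPM are identical to the parent over the aligned stretch, so the division of reads between them is not fixed by sequence. The levels of parents with such copies are therefore uncertain.

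In other families the copy was far lower in WT than in the deletion lines, and near 0 in WT for the copies below other than Gm6472. Gm8730, a copy of Rplp0 with 12 mismatches, measured 0.0887, 0.157 and 0.0901 TPM in untreated WT, 726, 779 and 692 in the GCN2-deletion line, and 291, 311 and 336 in the PERK-deletion line. Rpl3-ps1, with 2 mismatches to Rpl3, measured at most 0.571 in WT, 841, 850 and 771 in the GCN2-deletion line, and 601, 608 and 617 in the PERK-deletion line. Rpl34-ps1, with 2 mismatches to Rpl34, averaged 0.0831, 862 and 762 TPM in the same order, and Gm12191, with 1 mismatch to Rpl30, 1.23, 949 and 710. Gm6472, with 4 mismatches to Rps7, averaged 212, 905 and 1386. In each of these families the parent was lower in both deletion lines than in WT. The part of this division in the differences between lines was not tested apart from the sums that follow.

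With copies summed into their parents, 83 families were tested. In the GCN2-deletion line 23 families were higher and 8 lower than in WT, against 21.4% and 23.5% of all genes in that fit. Of the 34 members called before summing, 25 kept their call and direction and 2 (Rpl34 and Rps7) passed in the opposite direction. In the PERK-deletion line 12 were higher and 30 lower, against 31.6% and 18.8%, with 36 of 48 kept and the same 2 opposite. The Rplp0 family remained lower, at 1602, 1739 and 1524 TPM in the GCN2-deletion line and 2268, 2375 and 2441 in the PERK-deletion line against 2851, 3739 and 4071 in WT (-1.12 ± 0.10, adjusted p = 2.05e-10, and -0.57 ± 0.10, adjusted p = 1.86e-05). The Rpl3 family gave -0.08 ± 0.06 (adjusted p = 0.237) in the GCN2-deletion and -0.50 ± 0.06 (adjusted p = 2.41e-08) in the PERK-deletion line. The Rpl30 family gave -0.27 ± 0.11 (adjusted p = 0.0406) and -0.69 ± 0.11 (adjusted p = 4.12e-06). The Rps7 family turned, at 887, 1113 and 1196 TPM in WT, 1518, 1585 and 1398 in the GCN2-deletion line and 1568, 1699 and 2032 in the PERK-deletion line (0.50 ± 0.10, adjusted p = 7.92e-05, and 0.73 ± 0.10, adjusted p = 2.65e-07). Rpl8, with hardly any TPM in copies, was at -0.76 in the PERK-deletion line with and without summing. The stress comparisons changed less. With copies summed, 29 families fell and 2 rose with thapsigargin in the GCN2-deletion line, 30 of the 35 member calls were kept, and Rpl24 was at -0.78 and Rpl37a at -0.77. Rpl21 gave -0.30 ± 0.14 (adjusted p = 0.0960) when summed. In WT the Rpl10a family then rose in both stresses, by 0.28 ± 0.08 when starved (adjusted p = 0.00603) and by 0.32 ± 0.08 under thapsigargin (adjusted p = 0.00297).

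**Figure D5:**
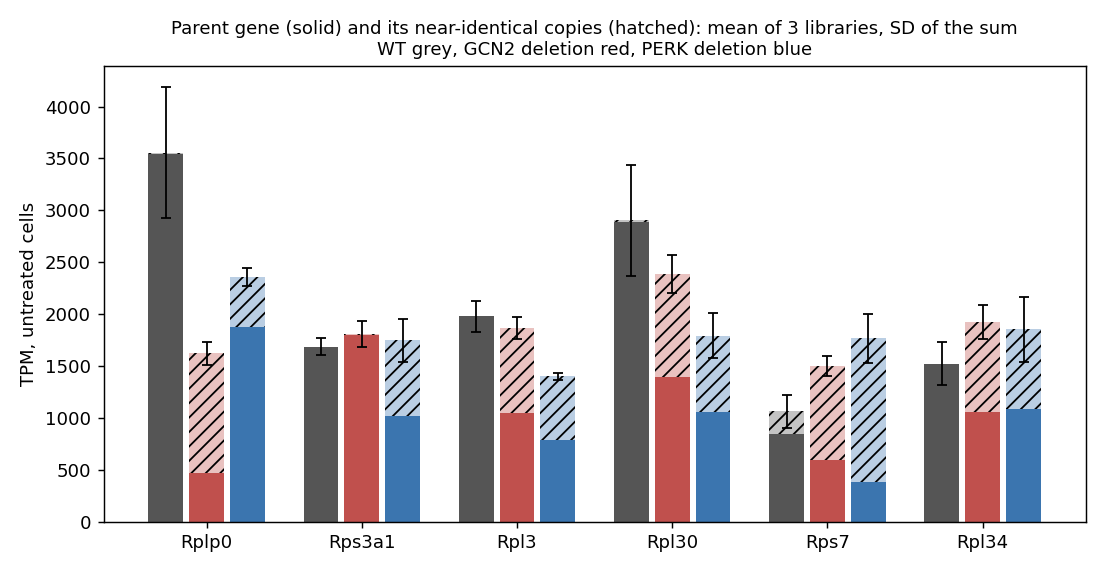
TPM in untreated cells (y axis, mean of 3 libraries) of 6 parent genes (solid) with their near-identical copies stacked on top (hatched) for WT (grey), GCN2 deletion (red) and PERK deletion (blue), with the SD of the sum. The solid part of Rps3a1 in the PERK-deletion line averages 1020 TPM against 1680 in WT, while the stacked bars average 1748 and 1685.

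Rps3a1 shows how little sequence separates a parent from its copy. Rps3a1 (chromosome 3, 86137940 to 86142702, minus strand, GRCm38) averaged 1680 ± 82.1 TPM (SD, n = 3) in untreated WT and 1020 ± 103 in untreated PERK-deletion cells. Rps3a2 (chromosome 14, 88123017 to 88123808) averaged 586 ± 81.2 and Rps3a3 (chromosome 13, 108670603 to 108671397) 138 ± 22.4 in those PERK-deletion cells. The family sum was 1685 TPM in WT and 1748 in the PERK-deletion line, a log2 difference of 0.05 with adjusted p = 0.618. Over 792 aligned bases of the reference annotation Rps3a2 differs from the Rps3a1 transcript by T349C, T667C, A778T and T801C, where the parent's base stands first and positions are counted from the first base of the Rps3a1 transcript. The stretches around T349C and A778T are shown with the differing base in capitals.
Rps3a1 at 349: gaagtgagccttgcTgatctacagaatga
Rps3a2 at 349: gaagtgagccttgcCgatctacagaatga
Rps3a1 at 778: tttgttagaaaagtAaaaatgctgaagaa
Rps3a2 at 778: tttgttagaaaagtTaaaatgctgaagaa
Within the 792 aligned bases both sequences are the same away from these 4 positions, and the Rps3a1 transcript extends beyond them. T349C and T667C are also found in Rps3a3, which differs from Rps3a1 at 9 positions over 795 bases.

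Other genes of the pathway were read from lists chosen with earlier results in view. Of 21 other TOP mRNA and translation factor genes, 5 rose and 0 fell with starvation in WT, 2 rose and 1 fell in the GCN2-deletion line, and 5 rose and 0 fell in the PERK-deletion line. Of all genes 12.5%, 11.7% and 5.75% rose in these comparisons and 17.4%, 12.2% and 6.39% fell. Those that rose most in WT were Rack1, a scaffold on the small subunit (0.34), and Tpt1, a growth-linked TOP transcript (0.33). With thapsigargin in the GCN2-deletion line 2 rose, Eif4b (0.23) and Eef2 (0.18), and 3 fell, among them the nascent chain binding subunits Naca (-0.32) and Btf3 (-0.28), with a median of -0.04 for the list, beside 25.4% of all genes that rose there and 11.3% that fell. In the untreated PERK-deletion line 14 of the 21 were lower than in WT and 2 higher, including Eif4b (-0.94) and Eif3e (-0.84), and in the GCN2-deletion line 9 were lower and 4 higher. All genes gave 18.6% lower and 31.2% higher in the first of these, and 23.2% and 21.2% in the second. Of 8 dedicated chaperones and escorts of ribosomal proteins, 7 rose and 0 fell with thapsigargin in the GCN2-deletion line (median 0.40), led by Pdcd2, which escorts Rps2 (0.73), and Ltv1, an assembly factor (0.46), and 5 rose in WT, where 11.4% of all genes rose. These rose in the comparison in which 34 ribosomal protein genes fell. Of 17 mTORC1 and TOP control genes 6 rose and 1 fell there, with Eif4ebp1, a repressor of cap-dependent translation, at 1.03 and Eif4ebp2 at -0.58. Of 78 mitochondrial ribosomal protein genes 12 rose and 14 fell there (median 0.00), against 21 and 6 in WT. Of all genes 25.4% rose and 11.3% fell there, against 11.4% and 14.8% in WT. The difference between these lists and the members was not tested.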

How the data were processed

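RNA of 36 libraries was measured with Illumina Stranded TruSeq after Trizol extraction, per the labels. The authors deposited TPM per gene symbol. FastQC, kallisto and mm10 are named in the submitters' processing notes, without versions. Kallisto divides reads among similar transcripts, so values of near-identical copies depend on that division. Depth is unknown.

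Deposited TPM were used unscaled. Filter: 1 TPM in at least 3 libraries (16083 of 54735 symbols). Limma 3.58.1 (R 4.3.3) fitted log2(TPM + 1) over all 12 groups with a variance trend (24 residual degrees of freedom), and adjusted p over all tested genes. There were 15 comparisons. In simulated data tested with the same code, fitted changes correlated with those built in, and few unchanged genes were called. The simulated noise was independent between genes, so shifts shared by a whole library were not covered. Copies were found with BLAST 2.17.0 on GENCODE M21 transcripts (GRCm38) and promoters taken from RefSeq (GRCm38.p6). Figures used matplotlib 3.10.9.

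The members and lists were chosen with earlier results of these data known. Genes named were a panel of members with known roles or paralogs, the 5 highest and 5 lowest, the 6 with the widest range, up to 8 calls in each direction per comparison, and up to 2 per direction from each further list. Copies, length classes and promoters were chosen after their values were seen, and so were the fits with copies summed and without 6 libraries of high microRNA share. Other alternatives were rescaling, a pseudocount of 0.1, no filter, compared groups alone, a replicate block, the other control group and leaving out each library. Values of 1 member are not reported here.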

Additional observations from a re-analysis of the deposited data

Results flagged for a closer look

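For 9 member and comparison pairs the response to a stress differed between a deletion line and WT in limma's test of the difference, at an adjusted p under 0.05. With thapsigargin, GCN2 deletion minus WT gave -0.60 for Rpl24, -0.47 for Rpl23, -0.43 for Rpl21, -0.39 for Rpl9, -0.37 for Rpl36al, -0.35 for Rps4x and -0.33 for Rps12. For Rpl24, Rpl23, Rpl21, Rpl9, Rpl36al and Rps4x the fall in the GCN2-deletion line passed on its own and the WT change did not. Rps12 passed as a rise in WT (0.23) and gave -0.10 in the GCN2-deletion line. The copies of Rps12 hold 96.0% of the family, and with copies summed its difference was -0.16 (adjusted p = 0.599). The difference of Rpl21 also missed the threshold with copies summed (-0.10 ± 0.20, adjusted p = 0.796). With thapsigargin, PERK deletion minus WT gave -0.75 for Rpl12, whose copies hold 95.7% of the family. With starvation, GCN2 deletion minus WT gave -0.22 for Rpl4. Groups of 3 libraries are too small for a test of single outlying libraries.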

How the results depend on the processing

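Counts below are of the 87 members called, either way. With the compared groups alone they were 3 for starvation in the GCN2-deletion line, 13 and 1 for thapsigargin in the GCN2- and PERK-deletion lines, 14 and 23 for the untreated GCN2- and PERK-deletion lines, 0 for the difference in starvation response (GCN2 deletion), and 4 and 3 for the differences in thapsigargin response (GCN2 and PERK deletion). With rescaling they were 3 for starvation in the GCN2-deletion line, 2 for thapsigargin in WT, and 0 and 12 for the GCN2-deletion differences in starvation and thapsigargin response. Without a filter they were 1 for thapsigargin in WT, and 0 and 4 for the same differences. The fit without filter tests more genes, and the fit of groups alone has fewer samples. With the other control they were 4 for starvation and 24 for thapsigargin in WT, and 73 and 4 for the differences in thapsigargin response (GCN2 and PERK deletion). With copies summed, starvation in WT gave 1. Without the 6 libraries of high microRNA share, starvation gave 6 in WT and 8 in the GCN2-deletion line, thapsigargin 14 in WT and 73 in the GCN2-deletion line, and the differences 3 (starvation) and 73 (thapsigargin) for GCN2 deletion and 1 and 4 for PERK deletion. Otherwise the cause was not tested.

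Leaving out 1 library gave 0 to 7 for starvation in WT (7 without untreated replicate 3), 4 to 5 in the GCN2-deletion and 0 to 2 in the PERK-deletion line. It gave 1 to 4, 22 to 53 and 0 to 0 for thapsigargin in WT, GCN2 and PERK deletion, and 0 to 7 for DMSO in WT. It gave 26 to 39 and 42 to 51 for the untreated GCN2- and PERK-deletion lines. For differences it gave 0 to 1 (starvation, GCN2 deletion), 3 to 29 and 1 to 2 (thapsigargin, GCN2 and PERK deletion).

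Signs turned with copies summed for Rpl12 (0.18), Rpl29 (0.20), Rpl34 (0.35) and Rps7 (0.50) in the GCN2-deletion line, and for Rpl29 (0.0239), Rpl34 (0.28), Rps2 (2.05e-05), Rps3a1 (0.0475) and Rps7 (0.73) in the PERK-deletion line. With DMSO groups, Rpl18 (-0.0366) and Rps3 (-0.0434) turned in the GCN2-deletion line. The pseudocount of 0.1 kept 135 of 136 single-gene calls.

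The replicate number does not pair samples: in 198 same-numbered pairs the correlation of deviations ran from -0.179 to 0.352 (median 0.00105), and 12 of 36 libraries correlated best with their own number. With the replicate block the counts were 36 (thapsigargin, GCN2 deletion), 35 and 49 (untreated GCN2- and PERK-deletion lines) and 8 (thapsigargin difference, GCN2 deletion), and all 136 single-gene calls held. TPM gives no depth, so members near 0 cannot be bounded.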
